A study of Mus musculus with 6 samples.

Results

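The set described here holds 38 genes for synaptic vesicles, transmitter release, synaptic contacts, axons and neuronal excitability, found by exact symbol among the 20325 genes listed for each library. All 38 were found, and 33 passed the filter on low counts. The members were selected on values from these same libraries, their expected counts and TPM in both sorted populations and within equal replicate numbers, so the difference between the populations is given here as a description, and counts of calls on it support nothing. RNA was sequenced from neural stem cells of mice at postnatal day 4, of mixed 129/Black 6 strain. The mice carried 2 copies of a doxycycline-inducible allele of Oct4, Sox2, c-Myc and Klf4 (Stemcca, in the ColA1 locus) and 1 copy of the reverse tetracycline transactivator (rtta, in Rosa26), in both groups alike. The cells had been expanded and frozen, and were induced with doxycycline until day 7. After fixation and permeabilisation they were sorted by antibody staining of both proteins into a Nanog+E-cadherin+ population (n = 3, called E-cadherin+ below) and a Nanog+E-cadherin- population (n = 3, called E-cadherin-). The comparison asks how Nanog-expressing cells with and without the epithelial adhesion protein differ on the way to pluripotency. Separate cultures or animals are not stated for the replicates, and p-values therefore cover the spread among these 6 libraries, which may be technical.

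In a neuron, transmitter is packed into vesicles that dock at the active zone and fuse when calcium enters, through the SNARE proteins syntaxin, SNAP-25 and synaptobrevin and the calcium sensor synaptotagmin. Neurexins and neuroligins join the membranes across the cleft, and ankyrins and spectrins fix channels and adhesion proteins in the axonal membrane. Neural stem cells normally hold most of these genes low until they differentiate, and the repressor REST, which binds a DNA element found near many of them, is one of the regulators known for this.

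Sequences before the start site are shown first, for the members whose upstream sequence holds a close match to the core of the REST element. The motif searched was CAGCACC, then 2 positions of any base, then GGACAG, on both strands, with at most 2 mismatches over these 13 fixed letters, in the 250 bases before each RefSeq start site (build GRCm38.p6, which is not the mm9 build named for the counts). RefSeq windows were found for 27 of the 38 members, with 43 windows in all. Such a match was found for 4 members, Syn1, Gria2, Gad2 and Grin1, which is 14.8% of the 27, against 1.71% of the 27025 genes in the table. Member windows had a median GC content of 58.0%, against 52.4% over all 32851 windows. The 4 windows read 5′ to 3′ on the gene's strand, with the match in capitals. They lie at chrX:20920919-20921168 (- strand), chr3:80802836-80803085 (- strand), chr2:22622077-22622326 (+ strand) and chr2:25319188-25319437 (- strand).
Syn1: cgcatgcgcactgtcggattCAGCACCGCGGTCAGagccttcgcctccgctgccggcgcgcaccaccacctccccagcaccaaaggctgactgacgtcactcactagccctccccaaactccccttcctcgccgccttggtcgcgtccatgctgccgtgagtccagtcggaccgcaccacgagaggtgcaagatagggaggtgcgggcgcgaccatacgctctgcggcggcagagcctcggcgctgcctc
Gria2: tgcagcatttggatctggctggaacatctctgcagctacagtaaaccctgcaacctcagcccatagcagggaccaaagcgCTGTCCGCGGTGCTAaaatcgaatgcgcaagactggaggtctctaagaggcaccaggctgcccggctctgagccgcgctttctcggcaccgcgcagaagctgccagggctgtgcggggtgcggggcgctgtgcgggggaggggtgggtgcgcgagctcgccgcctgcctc
Gad2: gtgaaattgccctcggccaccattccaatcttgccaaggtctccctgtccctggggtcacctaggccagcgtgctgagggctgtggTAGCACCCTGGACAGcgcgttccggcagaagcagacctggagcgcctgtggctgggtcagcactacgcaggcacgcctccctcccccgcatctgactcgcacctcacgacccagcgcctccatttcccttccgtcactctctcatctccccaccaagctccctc
Grin1: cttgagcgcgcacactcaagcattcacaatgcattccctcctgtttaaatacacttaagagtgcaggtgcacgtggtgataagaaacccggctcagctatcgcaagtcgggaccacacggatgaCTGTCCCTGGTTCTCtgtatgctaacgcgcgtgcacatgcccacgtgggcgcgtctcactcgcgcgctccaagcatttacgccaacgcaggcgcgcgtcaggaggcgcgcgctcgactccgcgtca
Counted from 1 at the motif's 5′ end, the match in Syn1 differs from the motif by A12T, and those in Gria2 and Gad2 both by C1T. The match in Grin1 differs by C1G and C4A. In Syn1 and Gad2 the motif reads along the gene's strand, and in Gria2 and Grin1 it reads on the opposite strand. These are matches of letters, and binding was not measured.

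Expression is given as CPM, a gene's count scaled to a common total with TMM factors. Where 3 values follow each other, they stand in the order of replicates 1, 2 and 3. Levels of different genes are compared only in the authors' TPM, which also allows for transcript length. Total expected counts ran from 8851110 to 39630916 per library. A floor of 3 counts corresponds to between 0.0844 and 0.314 CPM, highest in E-cadherin- replicate 3, where 7 of the 38 members had a count of 0. The sort was visible in Cdh1, the gene of E-cadherin, at 129 ± 21.3 against 17.4 ± 2.51 CPM (SD, n = 3 each). Nanog stood at 117 ± 15.1 against 107 ± 28.3 CPM (SD, n = 3 each). E-cadherin- replicates 2 and 3 stand apart in another way. The summed level of 1447 olfactory and vomeronasal receptor genes, which are mostly silent outside sensory tissue, was 1762 and 1127 CPM in them and 36.7 to 144 CPM in the other 4 libraries. Both low sums, 36.7 and 40.2 CPM, belonged to the libraries numbered 1, so each result that rests on E-cadherin- replicates 2 and 3 is also given for number 1.

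The label of the source cells was checked against marker genes. All 8 neural stem markers (Nes, Sox2, Vim, Msi1, Hes5, Fabp7, Slc1a3 and Pax6) passed the filter, with summed levels of 1931, 2971 and 4502 CPM in E-cadherin+ replicates 1 to 3 and 2345, 3509 and 4191 CPM in E-cadherin- replicates 1 to 3. The 5 neuron markers found (Tubb3, Dcx, Mapt, Stmn2 and Rbfox3) summed to 965, 376 and 215 CPM and 1303, 624 and 332 CPM, with the neuronal nuclear protein Rbfox3 between 0 and 3.19 CPM. The 6 astrocyte markers summed to 251, 712 and 1272 CPM and 160.4, 621 and 979 CPM, and the 8 oligodendrocyte lineage markers to 90.5, 186 and 163 CPM and 90.2, 252 and 127 CPM. The 4 endothelial markers summed to at most 57.9 CPM, and the 6 microglia and blood markers to at most 3.88 CPM, with Hbb-b1 at 0 in all 6 libraries. The 6 pluripotency markers summed to 713, 423 and 408 CPM and 416, 408 and 377 CPM. The sum of the neuron markers was thus highest in both libraries numbered 1, where that of the astrocyte markers was lowest. By gene, the mean of a number was highest in number 1 for 3 of the 5 neuron markers and in number 2 for 2. In sorted bulk samples, fewer cells of a type and less RNA per cell cannot be told apart.

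Most members were fitted lower in E-cadherin+ than in E-cadherin- cells. Of the 33 tested, 31 had a fitted log2 fold change (E-cadherin+ over E-cadherin-) below 0, against 51.5% of the 13460 genes tested, and the median was -0.63, against -0.01 over all genes. The summed level of the 38 was 553, 721 and 741 CPM in E-cadherin+ replicates 1 to 3 and 852, 1004 and 896 CPM in E-cadherin- replicates 1 to 3, so that the groups did not overlap. Within equal replicate numbers, 19 of the 33 were lower in E-cadherin+ cells in all 3 pairs (17.1% of all genes were) and 1, Nefl, was higher in all 3 (19.1%). The pairs were not alike. The members' median log2 ratio, after adding 0.5 CPM, was -0.60, -0.72 and -0.14 in numbers 1, 2 and 3. Over all genes tested it was 0.005, -0.01 and 0.04, so the members' difference was small in number 3. The E-cadherin- library of number 3 was the shallowest, with the fewest genes above 0 (13833) and 7 of the 38 members at 0 counts. The part of its depth in the smaller difference was not tested. In 7 members every E-cadherin+ library lay below every E-cadherin- library, among them Chrnb2, Nsg2, Stx1a, Syt1, Snap25 and Gad2 (3.19% of all genes), and in 0 members every E-cadherin+ library lay above (3.75%). At an adjusted p of 0.05, edgeR's quasi-likelihood test without other terms than group passed 0 of the 33 (0% of all genes passed), where 5 had an unadjusted p under 0.05 (2.67% of all genes did). With the replicate number as a block 1 passed, Nsg2, which was lower (0.305% of all genes passed, 0.0892% as lower). These counts describe the contrast by which the set was proposed, and nothing is read from them. The members fitted higher were Nefl and Gria2. Gria2 was lower in E-cadherin+ cells in numbers 1 and 2 (0.110 against 0.281 and 0.680 against 0.863 CPM). It had 0 counts in E-cadherin- replicate 3. The neuron markers were also mostly lower in E-cadherin+ cells. The fit put 4 of the 5 below 0 (median -1.08), edgeR called 0 with group only (1 had an unadjusted p under 0.05) and 1, Tubb3, as lower with the block, and their sum was lower in the E-cadherin+ library of every pair (965 against 1303, 376 against 624 and 215 against 332 CPM). Their part in the members' difference was not tested. Without E-cadherin- replicates 2 and 3 the members' median was -0.68, with 24 of 33 below 0. That fit sets E-cadherin+ replicates 1 to 3 against E-cadherin- replicate 1 alone, so it mixes the sort with the replicate number.

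**Figure D1:**
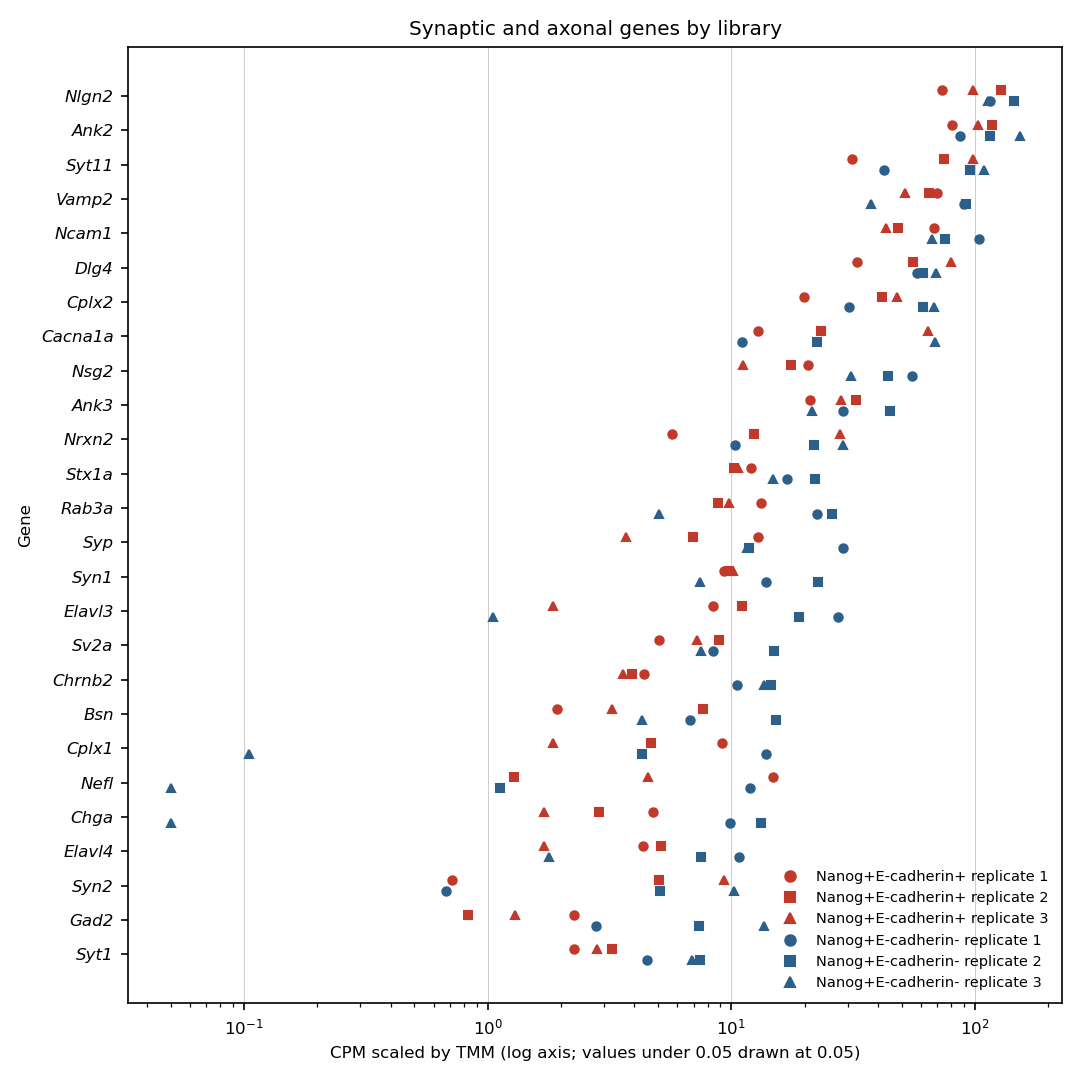
Levels of 26 of the 27 members with a mean of at least 5 CPM in either population, in every library (x axis, CPM on a log axis; values under 0.05 CPM are drawn at 0.05), with genes ordered by mean level. Red points are Nanog+E-cadherin+ and blue points Nanog+E-cadherin- libraries, and shapes give the replicate number. For Chrnb2 and Nsg2 the red and blue points do not overlap, while for Cacna1a points of equal shape lie together.

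A receptor subunit and a trafficking protein separated the populations without overlap. Chrnb2, the beta-2 subunit of neuronal nicotinic acetylcholine receptors, stood at 4.40, 3.93 and 3.60 CPM in E-cadherin+ replicates 1 to 3 and 10.6, 14.5 and 13.6 CPM in E-cadherin- replicates 1 to 3. All 3 E-cadherin- libraries lay above all 3 E-cadherin+ libraries, and the means were 3.98 ± 0.403 against 12.9 ± 2.06 CPM (SD, n = 3 each), a 3.24-fold difference with a log2 fold change of -1.70 ± 0.40 (SE). Nsg2, a neuronal endosomal protein that acts in receptor trafficking, stood at 20.6, 17.6 and 11.2 CPM in E-cadherin+ replicates 1 to 3 and 55.1, 44.1 and 31.1 CPM in E-cadherin- replicates 1 to 3. Here the level was 2.67, 2.50 and 2.79-fold higher in the E-cadherin- library within numbers 1, 2 and 3, nearly the same ratio each time. In number 1, where both receptor gene sums were low, Chrnb2 was 2.40-fold higher in E-cadherin- cells, against 3.69 and 3.78-fold in numbers 2 and 3.

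Among the 13 genes of vesicle membrane and release, 12 were tested and all 12 were fitted lower in E-cadherin+ cells, with a median log2 fold change of -0.57. Stx1a, the syntaxin of the plasma membrane SNARE complex, stood at 12.1, 10.3 and 10.7 CPM in E-cadherin+ replicates 1 to 3 and 16.9, 22.0 and 14.9 CPM in E-cadherin- replicates 1 to 3. The groups did not overlap, with a log2 fold change of -0.70 ± 0.31 (SE). Syp, synaptophysin, an abundant protein of the vesicle membrane, stood at 12.9, 6.96 and 3.70 CPM in E-cadherin+ replicates 1 to 3 and 28.7, 11.8 and 11.6 CPM in E-cadherin- replicates 1 to 3. The groups overlapped, with E-cadherin+ replicate 1 above E-cadherin- replicates 2 and 3, and within each number the E-cadherin- library was higher (2.23, 1.70 and 3.14-fold). Syt1, the calcium sensor of fast release, stood at 2.26, 3.25 and 2.80 CPM in E-cadherin+ replicates 1 to 3 and 4.50, 7.42 and 6.91 CPM in E-cadherin- replicates 1 to 3. Its groups did not overlap, at 2.77 ± 0.498 against 6.28 ± 1.56 CPM (SD, n = 3 each).

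Other release genes differed less or unevenly. Vamp2, the vesicle SNARE synaptobrevin, stood at 70.0, 65.1 and 51.6 CPM in E-cadherin+ cells and 89.97, 92.4 and 37.3 CPM in E-cadherin- cells, and E-cadherin- replicate 3 was the lowest of the 6. Rab3a, a vesicle GTPase, stood at 13.3, 8.85 and 9.76 CPM in E-cadherin+ cells and 22.4, 25.8 and 5.03 CPM in E-cadherin- cells, and again E-cadherin- replicate 3 was the lowest while the other E-cadherin- libraries were the highest. Syn1, a synapsin that tethers vesicles and a holder of the REST element match above, stood at 9.30, 9.83 and 10.2 CPM in E-cadherin+ cells and 14.0, 22.8 and 7.44 CPM in E-cadherin- cells. The 3 E-cadherin+ values were close together, and the E-cadherin- values lay on both sides of them. Sv2a, a vesicle glycoprotein, stood at 5.06, 8.92 and 7.25 CPM in E-cadherin+ cells and 8.41, 15.02 and 7.54 CPM in E-cadherin- cells, with overlap between the groups and the E-cadherin- library higher within each number. Cplx1, a complexin that binds assembled SNARE proteins, stood at 9.19, 4.69 and 1.85 CPM in E-cadherin+ cells and 14.0, 4.32 and 0.105 CPM in E-cadherin- cells. It was highest in both libraries numbered 1, and in E-cadherin- replicate 3 its 1 count was below the floor of 3 counts.

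Syt11, Cplx2 and Syn2 followed the replicate number more than the sort. Syt11, a synaptotagmin without calcium binding, stood at 31.3, 74.7 and 98.5 CPM in E-cadherin+ cells and 42.4, 95.0 and 109 CPM in E-cadherin- cells. Cplx2, another complexin, stood at 19.8, 41.4 and 47.8 CPM in E-cadherin+ cells and 30.4, 61.3 and 68.1 CPM in E-cadherin- cells. Both were lowest in the libraries numbered 1, and within each number the E-cadherin- library was higher, by 1.35, 1.27 and 1.10-fold for Syt11 and by 1.53, 1.48 and 1.42-fold for Cplx2. Syn2, another synapsin, stood at 0.716, 5.07 and 9.31 CPM in E-cadherin+ cells and 0.675, 5.09 and 10.3 CPM in E-cadherin- cells. Libraries of equal number were nearly equal for Syn2, and its log2 fold change was -0.08 ± 1.12 (SE).

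Snap25, Gad2 and Pclo are given in full, a choice made after their values were seen. Snap25 and Gad2 were raised in both libraries with high receptor gene sums, and Pclo in E-cadherin- replicate 3 alone. Snap25, the SNAP-25 SNARE protein, stood at 1.21, 0.983 and 0.5003 CPM in E-cadherin+ cells and 1.63, 8.37 and 3.98 CPM in E-cadherin- cells. Gad2, the GABA-synthesising enzyme GAD65, stood at 2.26, 0.832 and 1.30 CPM in E-cadherin+ cells and 2.78, 7.34 and 13.6 CPM in E-cadherin- cells. Pclo, the active zone scaffold piccolo, stood at 1.49, 2.42 and 2.15 CPM in E-cadherin+ cells and 1.49, 2.68 and 9.53 CPM in E-cadherin- cells. For Gad2 the E-cadherin- library was 1.23-fold higher in number 1, 8.82-fold in number 2 and 10.5-fold in number 3, and for Snap25 1.35, 8.52 and 7.96-fold. Gad2 and Snap25 had the lowest fitted log2 fold changes of the set (-2.42 ± 0.77 (SE) and -2.37 ± 0.86 (SE)), and these rest on E-cadherin- replicates 2 and 3. The part of the raised receptor gene sums in these 3 values was not tested. Bsn, the other large active zone scaffold (bassoon), stood at 1.93, 7.64 and 3.25 CPM in E-cadherin+ cells and 6.78, 15.3 and 4.30 CPM in E-cadherin- cells, and in number 1 the E-cadherin- library was 3.52-fold higher.

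**Figure D2:**
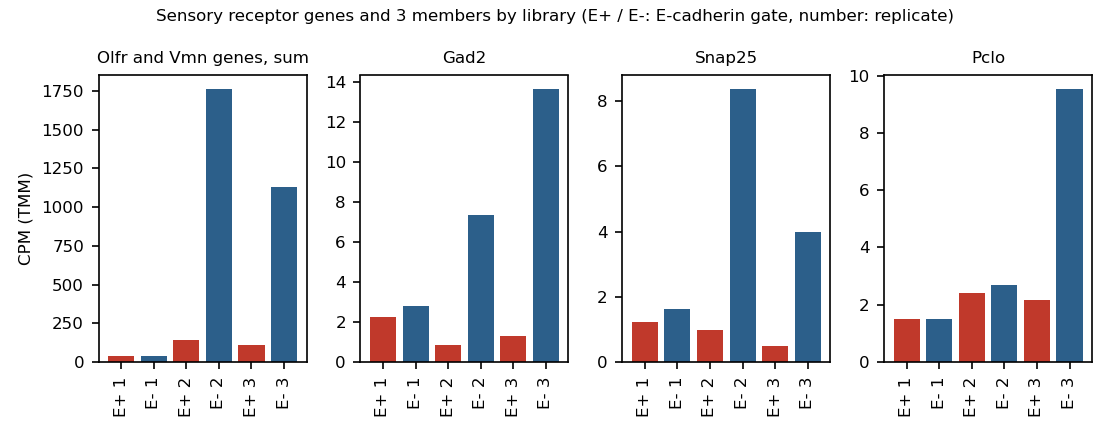
Summed CPM of 1447 olfactory (Olfr) and vomeronasal (Vmn1r, Vmn2r) receptor genes, and CPM of Gad2, Snap25 and Pclo, in each library (bars from 0; red E-cadherin+, blue E-cadherin-, in pairs of equal replicate number). The receptor sum is high in E-cadherin- replicates 2 and 3, where Gad2 and Snap25 are also highest, and Pclo is high in E-cadherin- replicate 3 alone.

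Of the 7 adhesion and scaffold members, 6 were tested and all 6 were fitted lower in E-cadherin+ cells, with small differences (median log2 fold change -0.52). Ncam1, the neural cell adhesion molecule, stood at 68.0, 48.5 and 43.0 CPM in E-cadherin+ replicates 1 to 3 and 104, 75.6 and 66.9 CPM in E-cadherin- replicates 1 to 3. Within numbers 1, 2 and 3 the E-cadherin- library was 1.53, 1.56 and 1.56-fold higher, although the groups overlapped by 1 library. Nlgn2, the neuroligin of inhibitory synapses, stood at 73.0, 128 and 97.8 CPM in E-cadherin+ cells and 115, 144 and 113 CPM in E-cadherin- cells, and Dlg4, the postsynaptic scaffold PSD-95, stood at 32.9, 55.9 and 80.1 CPM in E-cadherin+ cells and 57.7, 61.2 and 68.9 CPM in E-cadherin- cells. Both overlapped between groups, and for each the lowest value was in E-cadherin+ replicate 1. Nrxn2, a presynaptic neurexin, stood at 5.72, 12.4 and 27.9 CPM in E-cadherin+ cells and 10.4, 21.8 and 28.8 CPM in E-cadherin- cells, with number 1 lowest in both groups and values in number 3 nearly equal. Nrxn3 and L1cam, an axonal adhesion protein, stayed at or under 2.62 CPM in every library and were lower in E-cadherin+ cells in all 3 pairs. These rest on few counts. Nrxn3 had 1 count in E-cadherin+ replicate 1, below the floor of 3 counts. In number 3 it had 12 counts in E-cadherin+ and 9 in E-cadherin- cells, and was lower only after scaling. L1cam had 7 and 5 counts in E-cadherin+ replicates 1 and 2. Nlgn1 was at or under 0.650 CPM.

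The ankyrins of the membrane skeleton hardly differed. Ank2, the neuronal ankyrin-B, stood at 80.9, 118 and 103 CPM in E-cadherin+ cells and 87.0, 116 and 153 CPM in E-cadherin- cells, and Ank3, the ankyrin-G that organises the axon initial segment, at 21.0, 32.5 and 28.3 CPM in E-cadherin+ cells and 28.7, 44.6 and 21.5 CPM in E-cadherin- cells. The groups overlapped for both. Nefl, the light neurofilament chain, stood at 14.8, 1.29 and 4.55 CPM in E-cadherin+ cells and 11.9, 1.12 and 0 CPM in E-cadherin- cells. It was highest in both libraries numbered 1, had 0 counts in E-cadherin- replicate 3, and had a log2 fold change of 0.64 ± 1.53 (SE). Nefm, the medium chain, was at or under 1.49 CPM.

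The RNA-binding proteins Elavl3 and Elavl4, which stabilise neuronal transcripts, were low in number 3. Elavl3 stood at 8.42, 11.1 and 1.85 CPM in E-cadherin+ replicates 1 to 3 and 27.3, 19.0 and 1.05 CPM in E-cadherin- replicates 1 to 3. Elavl4 stood at 4.35, 5.14 and 1.70 CPM in E-cadherin+ replicates 1 to 3 and 10.7, 7.51 and 1.78 CPM in E-cadherin- replicates 1 to 3. In numbers 1 and 2 both genes were higher in the E-cadherin- library, and in number 3 no library exceeded 1.85 CPM. Chga, chromogranin A of dense-core granules, stood at 4.79, 2.87 and 1.70 CPM in E-cadherin+ cells and 9.84, 13.2 and 0 CPM in E-cadherin- cells, so that E-cadherin- replicates 1 and 2 were the highest and E-cadherin- replicate 3 had 0 counts.

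Cacna1a, the pore-forming subunit of the P/Q-type calcium channel of presynaptic terminals, stood at 12.9, 23.3 and 64.2 CPM in E-cadherin+ replicates 1 to 3 and 11.0, 22.5 and 68.5 CPM in E-cadherin- replicates 1 to 3. Libraries of equal number lay close together, and number 3 was 5.55-fold above number 1. The glutamate receptor subunit Grin1, a holder of the REST element match, stood at 2.64, 1.74 and 1.60 CPM in E-cadherin+ cells and 4.13, 2.76 and 1.47 CPM in E-cadherin- cells, and its groups overlapped. Gria2, the AMPA receptor subunit that limits calcium entry, also holds a match and was at or under 0.863 CPM. The other holders of a match, Syn1 and Gad2, had group means of 9.78 ± 0.454 against 14.7 ± 7.70 CPM (SD, n = 3 each) and 1.46 ± 0.726 against 7.91 ± 5.44 CPM (SD, n = 3 each). The remaining members below the filter were Syt4, Gad1 and Scn3a, at or under 1.43, 0.563 and 1.12 CPM.

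**Figure D3:**
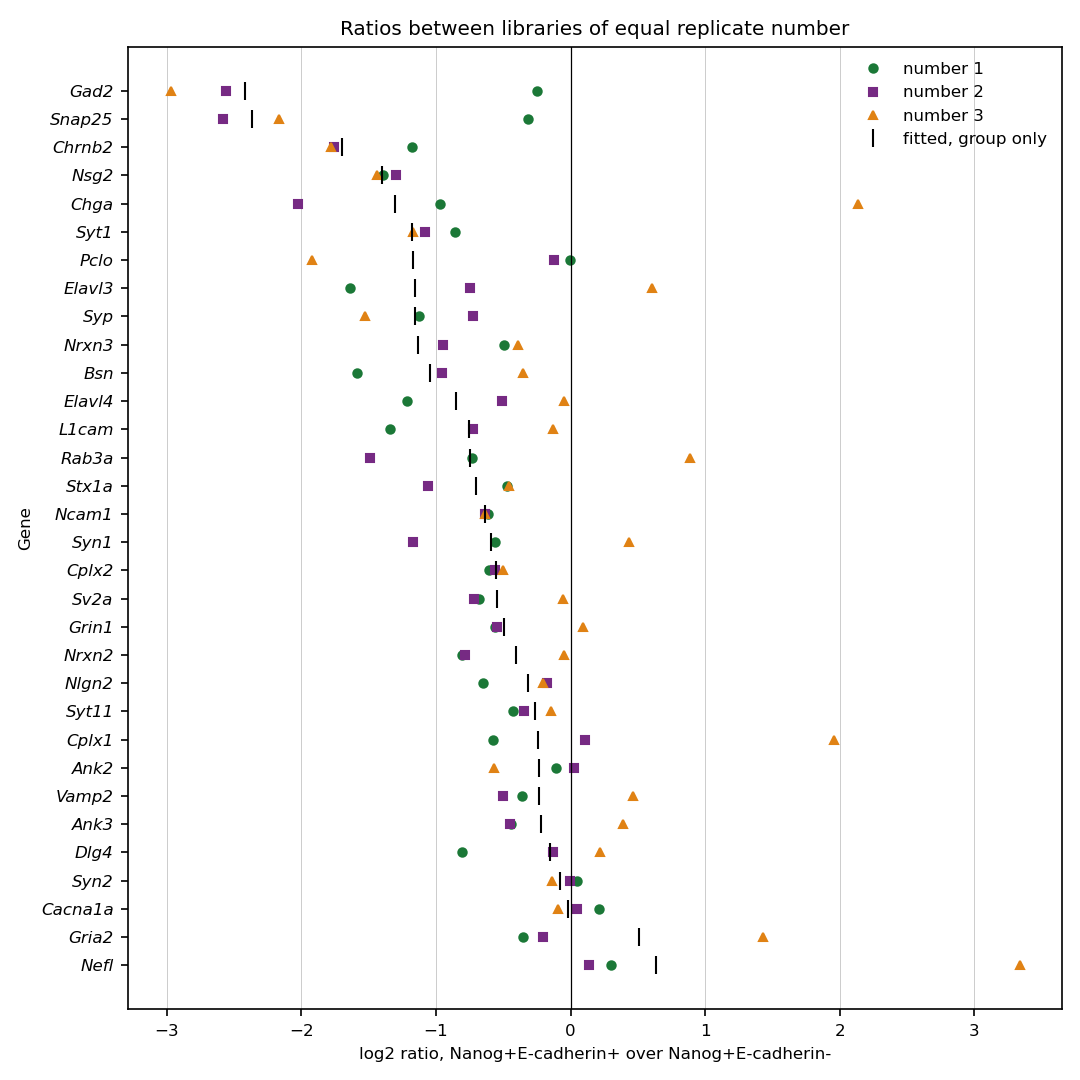
Log2 ratio of E-cadherin+ over E-cadherin- within libraries of equal replicate number, after adding 0.5 CPM (x axis), for 32 of the 33 tested members, ordered by the fitted log2 fold change (black ticks). Coloured points are numbers 1, 2 and 3. For Nsg2, Ncam1 and Cplx2 the 3 points nearly coincide, while for Gad2 and Snap25 number 1 lies near 0 and for Chga, Nefl and Cplx1 number 3 lies far to the right.

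Levels were also compared between members, in TPM averaged over the 6 libraries. At least 10 TPM was reached by 10 members, 18 averaged 1 to 10 TPM and 10 averaged under 1 TPM. The 5 highest were Vamp2 (57.2 TPM), Nlgn2 (42.4), Ank2 (36.7), Dlg4 (34.3) and Syt11 (32.6), followed by Nsg2 (24.5). Single libraries ranged from 39.2 to 91.6 TPM for Vamp2 and from 8.87 to 53.5 TPM for Syt11, and differences between neighbours in this order were not tested. Vamp2 lay below Nlgn2 in E-cadherin- replicate 3 (39.2 against 50.6 TPM) and above it in the other libraries. Among other release genes Cplx2 stood at 18.0, Stx1a at 13.2, Syp at 8.79, Snap25 at 2.67 and Syt1 at 2.33 TPM. Chrnb2 was scarce, at 3.00 TPM.

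The difference between replicate numbers is a contrast balanced over both populations. The members were chosen with values of these same libraries known, so their calls on this contrast are description as well. The contrast was tested for all genes with edgeR's quasi-likelihood F test in the fit with group and number. An adjusted p of 0.05 was passed by 7 of 33 members (21.2%), close to the 22.2% of all 13460 genes that passed, so the members' share is near the background. The mean of a number was highest in number 1 for 11 tested members, in number 2 for 12 and in number 3 for 10 (38.6%, 26.7% and 34.7% of all genes). Of the 7, 5 were highest in number 3 and lowest in number 1 (8.27% of all genes passed and were highest in number 3), namely Cacna1a (adjusted p = 0.000914), Syt11 (0.00332), Cplx2 (0.0108), Syn2 (0.0119) and Nrxn2 (0.0133). Number 3 exceeded number 1 by 14.1-fold for Syn2, 3.51-fold for Nrxn2, 2.81-fold for Syt11 and 2.31-fold for Cplx2. The other 2, Elavl3 (adjusted p = 0.0118) and Syp (0.0393), were highest in number 1 (10.7% of all genes passed and were highest there), 12.3-fold and 2.71-fold above number 3. The vesicle genes Syp and Syn2 thus took opposite patterns over the numbers. Neither passed without E-cadherin+ replicate 1 or without E-cadherin- replicate 1, and Syp did not pass with library totals in place of TMM. Chrnb2 and Nsg2 did not pass this test, at adjusted p of 0.961 and 0.0775. Of the 5 neuron markers 3 passed the same test, 2 of them highest in number 1 and 1 in number 2. Of the 6 astrocyte markers 4 passed, all 4 highest in number 3. Among these, Tubb3 was 9.15-fold higher in number 1 than in number 3 (adjusted p = 0.000337 in the same edgeR test). The astrocyte filament gene Gfap was 15.6-fold higher in number 3 (0.000305). The part of these cell type markers in the members' patterns was not tested. The count of members that passed depended on single libraries, as did that over all genes. Without E-cadherin+ replicate 1, 2 or 3 it was 5, 12 and 20 members (13.6%, 26.1% and 55.8% of all genes passed), and without E-cadherin- replicate 1, 2 or 3 it was 4, 11 and 16 (11.2%, 23.8% and 39.3%). Without E-cadherin+ replicate 1, 3 of the 7 still passed, Syt11, Elavl3 and Cacna1a, and these passed in each of the other 5 fits as well.

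**Figure D4:**
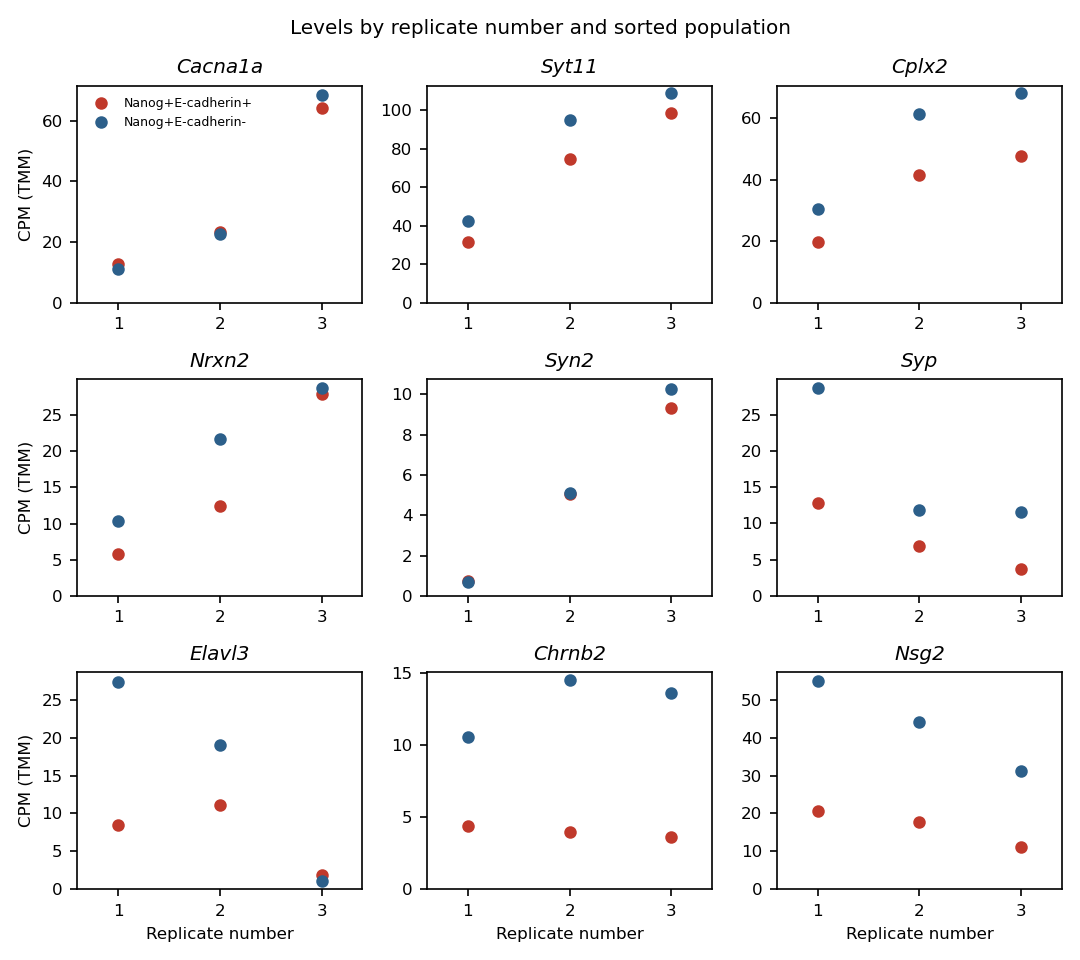
CPM of 9 members (y axes from 0) by replicate number (x axis) in Nanog+E-cadherin+ (red) and Nanog+E-cadherin- (blue) libraries, 1 point per library. Cacna1a, Syt11, Cplx2, Nrxn2 and Syn2 are highest in number 3 and Syp and Elavl3 in number 1 in both populations, except Elavl3 in E-cadherin+ cells, which is highest in number 2, while Chrnb2 and Nsg2 are higher in the E-cadherin- library at every number.

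Other neuronal genes, listed by function, were more often fitted lower than higher in E-cadherin+ cells, and 0 passed edgeR's test at an adjusted p of 0.05. Of 117 such genes in 4 lists, 92 were tested, and 70 of these were fitted lower in E-cadherin+ cells (51.5% of all genes were), with a median log2 fold change of -0.38. In edgeR's quasi-likelihood test 0 of 92 passed with group only (6 had an unadjusted p under 0.05, all lower) and 0 with the replicate block (15 lower and 1 higher had an unadjusted p under 0.05). Group-only DESeq2 and limma-voom also called 0, and blocked DESeq2 called 2, Cntn2 and Celf3. The medians were -0.34 for 27 vesicle and release genes, -0.41 for 23 adhesion and scaffold genes, -0.28 for 25 channel and receptor genes and -0.59 for 17 axonal, granule and RNA-binding genes. Without E-cadherin- replicates 2 and 3, with a lone library left on that side, the median over all 92 was -0.14. This fit mixes the sort with the replicate number, and within number 1 the median log2 ratio of the 92 was -0.42.

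The genes of smallest p included several that act with members. Unc13a, which primes vesicles and acts with Stx1a, stood at 12.9, 8.16 and 8.90 CPM in E-cadherin+ cells and 21.4, 32.9 and 16.6 CPM in E-cadherin- cells, with no overlap and a log2 fold change of -1.24 ± 0.38 (SE). Dnm1, the dynamin of vesicle retrieval, and Napb, a SNARE disassembly factor, had log2 fold changes of -0.73 ± 0.39 (SE) and -0.97 ± 0.68 (SE). Of the adhesion and scaffold genes, Cntn2, an axonal contactin, had -2.18 ± 0.87 (SE), Cntnap1 had -0.55 ± 0.27 (SE) and the node protein Nfasc had -0.58 ± 0.35 (SE). The spectrin Spnb4 (Sptbn4) was fitted higher, at 17.2, 10.9 and 14.2 CPM in E-cadherin+ cells and 11.2, 6.13 and 8.17 CPM in E-cadherin- cells (0.73 ± 0.39 (SE)). Of the channel and receptor genes, the sodium channel subunit Scn2b had -1.26 ± 0.66 (SE), the GABA-B receptor Gabbr1 -0.39 ± 0.22 (SE), the AMPA receptor subunit Gria3 0.43 ± 0.38 (SE) and Chrna4, the usual partner subunit of Chrnb2, -1.38 ± 1.06 (SE). Chrna4 stood at 10.7, 2.95 and 5.90 CPM in E-cadherin+ cells and 37.5, 1.04 and 12.2 CPM in E-cadherin- cells, so its spread over replicate numbers exceeded the difference between populations, and without E-cadherin- replicate 1 its log2 fold change was 0.000306. The splicing regulators Celf3 and Nova2 had -2.26 ± 0.89 (SE) and -0.48 ± 0.19 (SE), and the granule proteins Scg5 and Pcsk2 -0.59 ± 0.31 (SE) and -0.85 ± 0.46 (SE). For all 15 of these genes outside the set edgeR's adjusted p with group only rounded to 1, so it does not set them apart. The SE are from that fit as well. With the replicate block most were smaller, as for Celf3 (-1.99 ± 0.47 (SE)) and Nfasc (-0.52 ± 0.18 (SE)). For Scn2b the SE was larger (-1.41 ± 0.69 (SE)).

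REST and its corepressors showed no difference that passed. Rest itself stood at 13.5, 30.7 and 25.7 CPM in E-cadherin+ replicates 1 to 3 and 15.6, 18.3 and 28.5 CPM in E-cadherin- replicates 1 to 3, with overlapping groups and a log2 fold change of 0.17 ± 0.40 (SE). All 15 genes of this list were tested, 8 were lower in the fit and their median was -0.12. In edgeR's test 0 passed with group only (0 had an unadjusted p under 0.05) and 0 with the block (1 did, Rcor2, as lower). DESeq2 and limma-voom with group only called 0. The corepressor Rcor2 stood at 84.0, 62.4 and 38.4 CPM in E-cadherin+ cells and 149, 102 and 45.5 CPM in E-cadherin- cells. Within each number it was higher in the E-cadherin- library. Its log2 fold change was -0.69 ± 0.46 (SE) with group only and -0.60 ± 0.18 (SE) with the block. It also differed between replicate numbers (adjusted p = 0.0066 in edgeR's test). Rcor1, the demethylase Kdm1a and the deacetylases Hdac1 and Hdac2 had log2 fold changes of -0.19 ± 0.38 (SE), -0.15 ± 0.22 (SE), 0.12 ± 0.24 (SE) and -0.12 ± 0.27 (SE). The signs of Rest, Rcor1, Kdm1a, Hdac1 and Hdac2 each turned without some single library. Sin3a and Rcor3 had 0.27 ± 0.20 (SE) and -0.83 ± 0.60 (SE).

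Isoform use was read from the mean transcript length that the files give for each gene and library, which varies only where a gene has several RefSeq transcripts. Of the members, 13 have 2 or more and 25 have 1. Ank3, with 9 transcripts, had mean lengths of 7373, 7689 and 7611 bases in E-cadherin+ replicates 1 to 3 and 7490, 8411 and 8158 bases in E-cadherin- replicates 1 to 3. The groups overlapped (exact two-sided permutation p = 0.3, where 0.1 is the smallest that 3 against 3 allow). Ncam1, with 3 transcripts, had 6202, 6100 and 5903 bases against 6254, 6000 and 5966 bases, highest in both libraries numbered 1 (exact permutation p = 1). Over the 13 genes the smallest exact p was 0.2, before any adjustment.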

How the data were processed

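RNA of 6 libraries of sorted mouse cells was analysed, 3 per group, and titles gave groups and replicate numbers. The authors used Bowtie and RSEM 1.2.4 with build mm9, per the submitters' processing notes. Settings and strand use: not given in the sources used here. Antisense partners and near-identical copies therefore cannot be told apart. Per the file headers, the deposited values are an expected count, TPM, FPKM and a mean transcript length per gene. The authors' expected counts were rounded to whole numbers. The authors' TPM served for levels between genes and for 2 alternatives, and their FPKM was not used. The deposited lengths are another measure (other), in bases.

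The fit across all genes used edgeR 4.0.16 in R 4.3.3, with TMM, filterByExpr (minimum count 10, minimum total 15), a quasi-likelihood test and Benjamini-Hochberg adjustment over 13460 genes at 0.05. Alternatives used limma 3.58.1 and DESeq2 1.42.0. Steps were tested on simulated data. Same-numbered libraries deviated together from their group means (correlations across genes 0.79, 0.45 and 0.54, all over 0.1, against -0.65 to 0.16 for other pairs), so the numbers were taken to pair the samples, from the values and not the labels. The members and lists were chosen with earlier results of these data known. Members with a group mean of at least 5 CPM are given in every library, the others by range, and other lists by their 4 genes of smallest p at 5 CPM or more, any that passed, and Rest, Rcor1, Rcor2, Kdm1a, Hdac1 and Hdac2. Map2, also listed, was not analysed here. Some genes that enter the counts and medians are not reported here by name.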

Additional observations from a re-analysis of the deposited data

How the results depend on the processing

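The median log2 fold change of the members stayed below 0 in all 20 alternatives, between -0.79 and -0.38. Of the 31 members fitted lower, 17 were below 0 in every alternative that gave them a value and 14 were above 0 in some. With group only the test called 0 of all genes, 0 members, 0 other neuronal genes and 0 REST-related genes. With the replicate block it called 41 of all genes and 1 member, and the median of the other neuronal genes was -0.33. With edgeR the block changed no other call. Without both libraries of number 1, 2 or 3 the blocked fit called 182, 140 and 449 of all genes, 1, 1 and 6 members and 0, 1 and 7 other neuronal genes. Their median was then -0.27, -0.31 and -0.49, and 1 REST-related gene was called without number 3. Without a low-count filter 1 of all genes was called. DESeq2 called 13 of all 13460 genes and 2 members with group only, and with the block 304, 3 and 2 other neuronal genes, with a median of -0.29 for the last. That median was -0.25 with limma-voom, -0.46 on log2(TPM + 0.1), and -0.51 to -0.28 without 1 library at a time. The REST-related median was -0.24 on log2(TPM + 1) and on log2(TPM + 0.1), and -0.13 to 0.017 without 1 library at a time. Without E-cadherin- replicates 2 and 3, an alternative chosen after seeing the data in which the lone E-cadherin- library is assumed to vary like the other group, the medians were -0.14 for other neuronal and 0.070 for REST-related genes, Rcor1 was at 0.41, Hdac1 at -0.14 and Rcor3 at 0.31. The sign also turned without 1 library at a time, with log2 fold changes of -0.41 to 0.079 for Rcor1, -0.071 to 0.46 for Rest, -0.27 to 0.0038 for Kdm1a, -0.033 to 0.27 for Hdac1, -0.36 to 0.081 for Hdac2 and -1.94 to 0.000306 for Chrna4, and in the block without a number for Chrna4 (0.16), Rest (-0.17) and Hdac2 (0.039). Between replicate numbers, 11 members were called without a filter (23.5% of all genes) and 11 by DESeq2's likelihood ratio test (30.1%), and 4 to 20 members and 1531 to 7605 of all genes without 1 library at a time. The alternative without E-cadherin- replicates 2 and 3 also mixes the sort with the replicate number. The cause of the changes between alternatives was not tested. With 3 libraries per group, 8851110 counts in the shallowest and 5 members below the filter, small differences in scarce genes were not detectable at this depth. Larger differences were missed as well. With group only edgeR called 0 of the 2 sorted genes, although Cdh1 had a log2 fold change of 2.89. With the replicate block it called 1 of these 2, as higher in E-cadherin+ cells. The absence of calls with group only therefore does not show that a gene was alike in both populations.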
